A study of Capra hircus with 2 samples.

Results

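The 35 miRNAs described here are those of the 346 conserved miRNAs listed for the goat mammary gland whose miRBase number runs from miR-2290 to miR-2904, without miR-2478 and miR-2887. Numbers in this range were given largely to miRNAs found in cattle, and the study named the goat sequences after their bovine matches. The remaining 311 listed miRNAs served as the comparison set. Small RNA of mammary gland tissue from Xinong Saanen dairy goats was sequenced in 2 libraries, the dry period or D library and the peak lactation or P library, each made from the pooled tissue of 3 goats, with no genetic alteration or treatment named. The labels put the dry period at 75 days after lambing and peak lactation at 320, whereas the study's methods have these 2 days the other way round, and the groups were taken from the sample titles. The goats were 2.5 years old. With 1 library per stage there was no replicate, so each interval below is a 95% interval that covers counting error only, and each difference compares 2 libraries rather than 2 stages.

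A miRNA is cut from a hairpin precursor by Drosha and then Dicer, which leaves a duplex with short 3′ overhangs, and usually 1 strand of it is kept by Argonaute. Because target choice rests on the seed, bases 2 to 8, a true miRNA is known for a 5′ end that scarcely moves, while its 3′ end is trimmed and tailed. Reads of such a miRNA therefore pile up at a single start and mostly measure 21 to 23 nt. Fragments of more abundant RNAs tend instead to give reads with many starts and lengths. In the mammary gland, miRNAs are studied for their part in epithelial growth, lactation and involution, but for most of the bovine-numbered entries no role has been established.

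The sequences below are those on which the results turn, with the seed in capitals, each as the study listed it. In the first group at least 86.7% of the reads began at the listed base.
miR-2355*: aUCCCCAGauacaauggacaau
miR-2355: aUUGUCCUugcuguuuggagau
miR-2387: uGGAAGGCcuggcuuugcagcg
miR-2404: uUGCACUGcaugguaucu

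The next group had many starts or a main start away from the listed one.
miR-2411: uGUGGAGUgacugucagaugcag
miR-2411*: gCUGAACUgucuuacucccacau
miR-2424: gAUCUUUGguaaucugauggcu
miR-2332: cGGUUUAAggucuuggagacaaa
miR-2427: gUCAUUUCaaagagggcugauggg
miR-2440: cAGUGAUGagacccuggaa

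The last 3 lay 1 base away from far more abundant tags. For these the first 18 bases are given as listed and then as found in the abundant tags, with the base that differs in capitals.
miR-2476, listed: Ccccuguggucuaguggu
miR-2476, abundant: Ucccuguggucuaguggu
miR-2487, listed: ucuaagggcugggCcggu
miR-2487, abundant: ucuaagggcugggUcggu
miR-2904, listed: ggagccucgguUggccuc
miR-2904, abundant: ggagccucgguCggccuc

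The libraries held 14851375 clean reads in the D library and 15712891 in the P library. Listed miRNAs took 61.1% of the reads in the D library and 14.4% in the P library. A miRNA with no read could lie at up to 3 reads, which is 0.202 reads per 1000000 clean reads (RPM) in the D library and 0.191 RPM in the P library. All 6 listed markers of mammary epithelium had reads in each library, with a sum of 2687 RPM in the D library and 1342 RPM in the P library. The 4 smooth muscle and stroma markers went from 21847 to 6490 RPM. The 3 red blood cell markers went from 110 to 190 RPM and the 4 immune markers from 481 to 176 RPM. The part of cell composition in the values below was not tested, and in bulk tissue fewer cells of a type and less RNA per cell cannot be told apart.

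The bovine-numbered miRNAs were rare. Reads in this paragraph and the next are those from the listed start, unless stated otherwise. All 35 had at least 1 read, as did all 311 others. The study drew its list from these same 2 libraries, so this follows largely from how the list was made. Together the 35 held 183 reads in the D library (12.3 RPM) and 96 in the P library (6.11 RPM). This was 0.00202% of the listed miRNA reads in the D library and 0.00424% in the P library. The median was 3 reads over both libraries, against 292 for the other 311 miRNAs. No member reached 100 reads, whereas 120 of the other miRNAs had 1000 or more. In 12 of the 35 (34.3%) detection rested on 1 read, against 14 of the 311 others (4.50%). Those 12 were miR-2290, miR-2319a, miR-2330*, miR-2331*, miR-2422, miR-2426, miR-2427, miR-2459 and miR-2466-3p, with their read in the dry period, and miR-2335, miR-2341 and miR-2440, with theirs at peak lactation. At any start, reads holding listed bases 4 to 18 numbered 16 in the D library and 9 in the P library for miR-2440. They numbered 10 and 3 for miR-2427 and 4 and 2 for miR-2319a. These miRNAs were thus in both libraries, and the rest of the 12 gained no read. A minimum of 3 reads in either library left 17 of the 35, and a minimum of 10 reads left 6.

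Reads were found in 32 of the 35 in the dry period and in 18 at peak lactation, with 15 found in both libraries. Reads in the dry period alone were found for 17 members, for 22 of the 311 others and for 39 of all 346. Of the 17 members found only in the dry period, miR-2331 had 9 reads, miR-2384 had 4, and miR-2315, miR-2328, miR-2330 and miR-2483* had 3 each. miR-2483 and miR-2464-3p had 2 reads each in the dry period and none at peak lactation. Being found only in the dry period depended in part on the listed start. At any start, reads holding listed bases 4 to 18 were found at peak lactation for 5 of the 17. These had 2 reads for miR-2319a, 2 for miR-2328, 3 for miR-2427, 1 for miR-2464-3p and 1 for miR-2483. The upper end of the counting interval for the log2 ratio of peak lactation to dry period, per clean read, was −1.06 for miR-2331 and 0.52 for miR-2384. Thus 4 reads against none did not set miR-2384 apart from no difference. The bound for miR-2331 lay above −1.44, the median over all tested miRNAs. Its 9 reads against none thus did not set it apart from that median. The other members below 10 reads were miR-2474, with 6 reads in the D library and 2 in the P library, miR-2332 and miR-2469, with 2 in each library, and miR-2432 and miR-2448, with 1 in each. The 25 members below 10 reads together held 50 reads in the D library and 11 in the P library, and 17 of them were found only in the dry period. The 44 other miRNAs below 10 reads fell likewise, from 92 to 31 reads, and 21 of them were found only in the dry period. The plot of reads by library shows that the members with reads in a single library all lie below 10 reads.

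**Figure D1:**
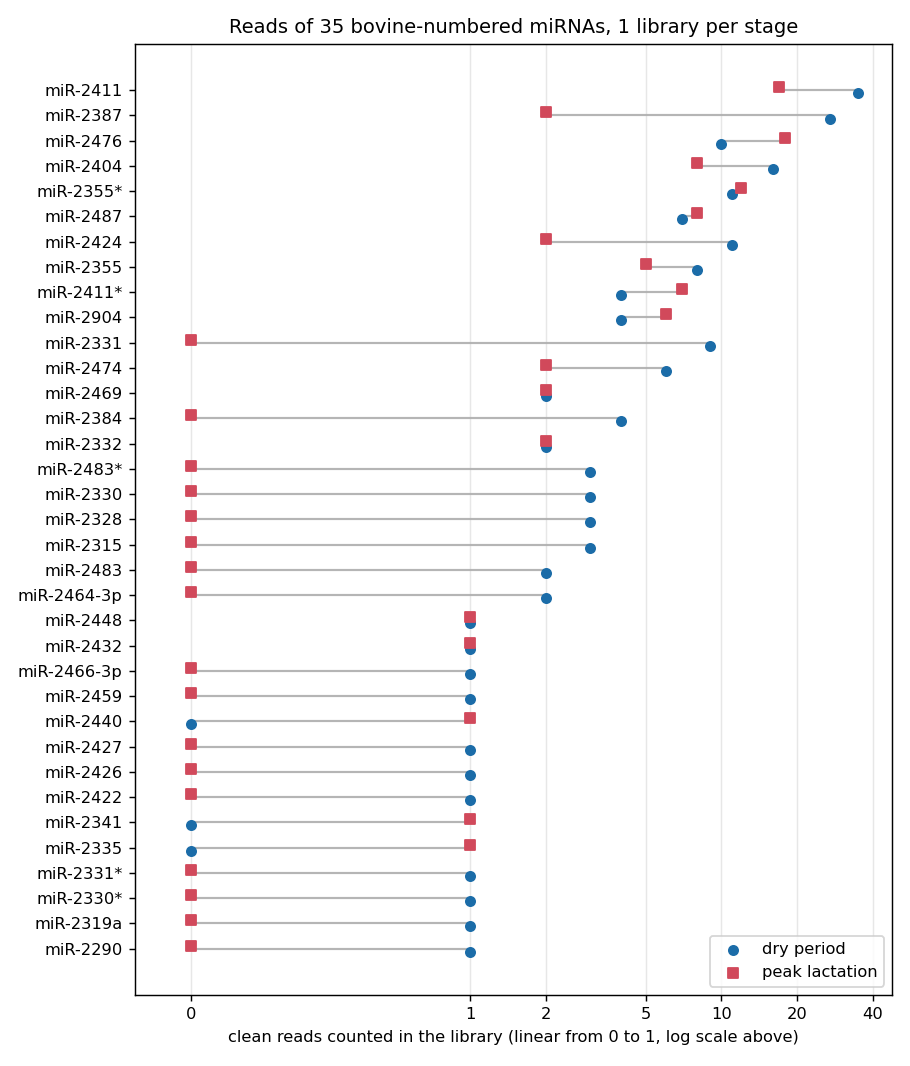
Clean reads counted from the listed start for each of the 35 bovine-numbered miRNAs in the dry period library (circles) and the peak lactation library (squares), on an axis that is linear from 0 to 1 and logarithmic above. The highest member, miR-2411, had 35 and 17 reads, and the lowest 12 had 1 read in all.

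Many of the members' reads did not begin where the list has them begin. 5′ end fixity is the share of reads holding listed bases 4 to 18, called core reads here, that start at the listed first base. It was computed for miRNAs with at least 10 such reads, which were 13 members and 273 other miRNAs. The median was 37.4% for the members, with a range of 4% to 100%, and 98.6% for the others. A fixity of 90% or more was seen in 3 of the 13 members and in 209 of the 273 others (76.6%). A fixity under 50% was seen in 7 of the 13 members and in 12 of the 273 others (4.40%). Low values were not particular to the members. Among other ruminant-numbered miRNAs, fixity was 1.49% for miR-2284a, 5.66% for miR-2284d, 1.93% for miR-2284h, 1.23% for miR-2284u, 20.1% for miR-2478 and 12.3% for miR-2887. It was 56.5% for miR-2284j, 63.9% for miR-2284k, 83.2% for miR-2284m, 57.7% for miR-2284x, 51.0% for miR-3431 and 97.5% for miR-3432. Among the others, the median was 96.8% for the 57 with 10 to 99 core reads, 97.0% for the 90 with at least 100 and under 1000 and 99.1% for the 126 with 1000 or more. The share of them at 90% or above was 68.4%, 70.0% and 84.9% in the same order. The 11 members with 10 to 99 core reads had a median of 37.1%, and 3 of them reached 90%. These figures are descriptions of 2 libraries, without a test. Most of the 930 core reads of miR-2476 carried a base other than the listed one at position 1, as described further on.

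Reads of miR-2355*, miR-2387, miR-2404 and miR-2355 began mostly at the listed base. miR-2355, which also has a human counterpart in miRBase, was listed with both arms. miR-2355* had 11 reads in the D library and 12 in the P library, and 23 of 23 reads began at the listed base (interval 85.2% to 100%). miR-2355, the 3p arm, had 8 and 5 reads, and 13 of 15 began at the listed base (86.7%). The 2 libraries thus held nearly equal reads of miR-2355* per clean read, with a log2 ratio of peak lactation to dry period of 0.04 (−1.26 to 1.37).

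miR-2387 had 27 reads in the D library and 2 in the P library, and 29 of its 30 core reads (96.7%) began at the listed base. Its 3′ end varied in the way usual for miRNAs. The most frequent tag was 1 base longer than the listed 22 nt, and 25 of its 29 reads measured 21 to 23 nt. miR-2404 had 16 and 8 reads, and 24 of 25 core reads (96.0%) began at the listed base. Its listed form is 18 nt, and 22 of its 24 reads measured 18 to 20 nt, so a fixed start here went with a length short for a miRNA.
miR-2331 and miR-2474 had too few reads for the count above, but their 9 and 8 core reads all began at the listed base.

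**Figure D2:**
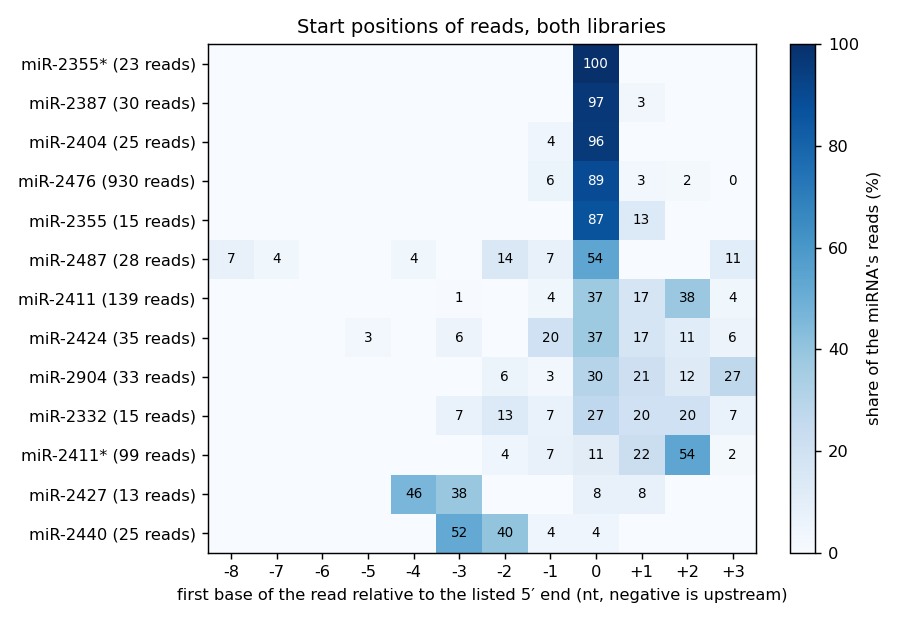
Share of reads by start position for the 13 bovine-numbered miRNAs with at least 10 reads holding listed bases 4 to 18, over both libraries, with the horizontal axis in nt from the listed 5′ end and the colour scale in percent. The top rows have their reads in the column of the listed start, and the rows of miR-2440, miR-2427 and miR-2411* have their largest share elsewhere, while miR-2411 has 52 reads at the listed start and 53 reads 2 bases downstream.

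The loose starts took several forms. The plot of start positions can show reads that begin no further than 3 bases downstream, because the reads had to hold base 4. miR-2440 had 25 core reads, of which 1 began at the listed base (4%), 13 began 3 bases upstream and 10 began 2 bases upstream. Its most frequent tag, with 4 reads in the D library and 3 in the P library, carried a different seed from the listed one.
miR-2440, main tag: uUCAGUGAugagacccuggaa
Likewise 1 of 13 core reads of miR-2427 (7.69%) began at the listed base, while 6 began 4 bases and 5 began 3 bases upstream. Counting only from the listed start thus took in 1 read each of these miRNAs.

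miR-2424 was loose at the 5′ end and fixed at the 3′ end. It had 26 core reads in the D library and 9 in the P library, of which 13 of 35 (37.1%) began at the listed base and 7 began 1 base upstream. All 35 ended at listed base 22. A 3′ end more fixed than the 5′ end was found in 3 of the 13 members and in 9 of the 273 others (3.30%). miR-2332 had starts from 3 bases upstream to 3 bases downstream, with 4 of 15 reads (26.7%) at the listed base.

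**Figure D3:**
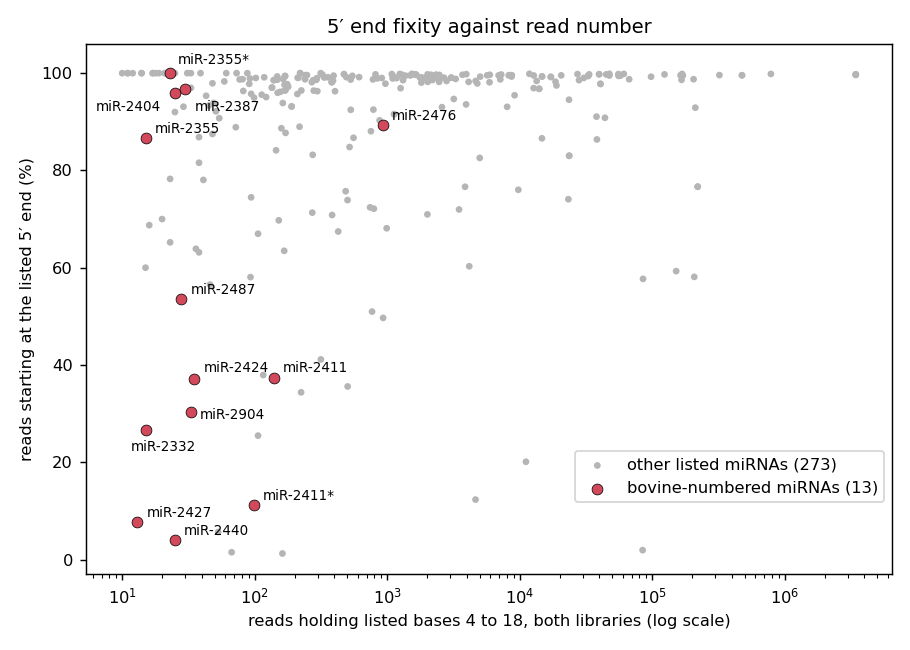
5′ end fixity in percent against the number of reads holding listed bases 4 to 18 over both libraries, on a logarithmic axis, for 13 bovine-numbered miRNAs (red) and 273 other listed miRNAs (grey). Most grey points lie near 100% at every read number, and 7 of the 13 red points lie below 50%.

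Both arms of miR-2411 had many reads that began 1 or 2 bases downstream of the listed base. For miR-2411, the 5p arm, 35 reads in the D library and 17 in the P library began at the listed base. Another 17 and 6 began 1 base downstream, and 34 and 19 began 2 bases downstream. The listed start held 38.9% and 34.7% of the reads, and the start 2 bases downstream held 37.8% and 38.8%. For miR-2411*, the 3p arm, 4 and 7 reads began at the listed base. Another 5 and 17 began 1 base downstream, and 8 and 45 began 2 bases downstream. The last was its most frequent start, with 53 of 99 reads (53.5%), while 84.8% of its reads shared 1 end position. The main tag of each start 2 bases downstream is given below with its seed in capitals, and each differs in seed from the listed form above.
miR-2411, 2 bases downstream: uGGAGUGAcugucagaugcagc
miR-2411*, 2 bases downstream: uGAACUGUcuuacucccacaucu
Folded as a duplex, the listed miR-2411 and this main miR-2411* tag left 3′ overhangs of 2 bases on either strand, with 14 base pairs. The listed pair left overhangs of 5 and 0 bases, with 16 base pairs and a lower free energy (−15.8 against −13.5 kcal/mol). The 2 downstream tags paired with each other left overhangs of 3 and 6 bases with 11 base pairs, and the downstream miR-2411 tag with the listed miR-2411* left 0 and 4 bases with 16 base pairs.

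The balance of the 2 arms of miR-2411 differed between the libraries. Over all starts and per clean read, miR-2411 had 90 reads in the D library and 49 in the P library, a log2 ratio of −0.96 (−1.49 to −0.44). miR-2411* had 20 and 79 reads, a log2 ratio of 1.90 (1.18 to 2.69). The 3p share of both arms was therefore 18.2% (11.5% to 26.7%) in the D library and 61.7% (52.7% to 70.2%) in the P library, a difference of 43.5 percentage points. Because the share is taken within each library, it does not depend on the scaling of the libraries. Over the 22 other listed pairs with at least 10 reads in each library, the differences ranged from −10.3 to 17.3 points with a median of −0.05, and 1 pair crossed 50%. With reads at the listed start alone, miR-2411 gave shares of 10.3% (2.87% to 24.2%) and 29.2% (12.6% to 51.1%), with intervals that overlap. That difference was 18.9 points, against a highest value of 18.7 points among the 22 other pairs. The larger difference thus rested on starts that the listed sequences do not cover. For miR-2355 the 3p share was 47.6% and 29.4%, with intervals that overlap. The pairs of miR-2330, miR-2331 and miR-2483 had fewer than 10 reads in a library.

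**Figure D4:**
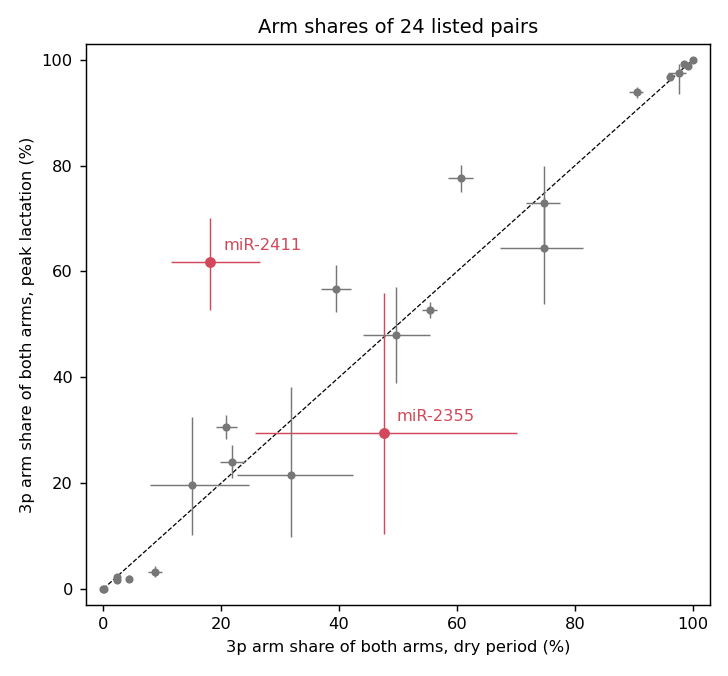
Share of the 3p arm in the reads of both arms, in percent, at peak lactation (vertical axis) against the dry period (horizontal axis) for 24 listed pairs, with reads at any start, exact 95% binomial intervals and a dashed line of equal shares. The point for miR-2411 lies at 18.2% and 61.7%, farther above the line than the grey points of the 22 other pairs.

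miR-2476, miR-2487 and miR-2904 each stood beside tags that differed from them by 1 base and were more than 10 times as frequent. This held for 3 of the 35 members (8.57%) and for 6 of the 311 others (1.93%), which were 4 members of the miR-2284 family, miR-376a and miR-376d. Substitutions are written with the listed base, its position counted from 1 at the 5′ end, and the base of the abundant tag. miR-2476 had 10 reads in the D library and 18 in the P library, while tags with C1U had 375 and 415. miR-2487 had 7 and 8 reads, while tags with C14U had 2015 and 3497, or 367 times as many. miR-2904 had 4 and 6 reads, while tags with U12C had 1282 and 4857, or 614 times as many.

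The listed sequences were 3.54%, 0.272% and 0.163% as frequent as the abundant tags for miR-2476, miR-2487 and miR-2904. Of the 54 single-base substitutions possible in the first 18 bases of each abundant tag, the listed sequence ranked 2, 8 and 12 by reads, in the same order. The substitution with the most reads had 47, 60 and 28, and the median over the 54 had 0, 3.5 and 3. The listed forms of miR-2487 and miR-2904 thus lay among other rare single-base forms of the same tags. Sequencing error and true variants cannot be told apart in these counts.

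The abundant tags themselves differed in how they began. Among reads with the bases 4 to 18 of the abundant miR-2487 tag, 15.8% of 35409 began at the same base, and the most frequent start, 3 bases downstream, held 19.4%. For the abundant miR-2904 tag it was 20.01% of 31145 reads, with 24.6% at the most frequent start. For miR-2476, where the substituted base lies outside bases 4 to 18, 89.2% of 930 reads began at the listed position. The abundant miR-2476 tag ran in lengths, with 31.8% of its reads at 18 to 20 nt, 26.5% at 21 to 23 nt and 41.8% at 24 nt or more. A related sequence with 1 more G, ucccugguggucuagugguua, had 1120 reads in the D library and 1303 in the P library. No goat genome was used here, so the RNA from which these tags came is not named.

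Pooled by reads, the members were less uniform in length than the other miRNAs. Reads of 21 to 23 nt made up 62.8% (55.4% to 69.9%) of the member reads in the D library and 46.9% (36.6% to 57.3%) in the P library. The other miRNAs had 92.8% and 89.4%. Members had 24.6% and 27.1% of their reads at 18 to 20 nt, and 12.6% and 26.04% at 24 nt or more. The intervals of the members do not reach the values of the other miRNAs in either library. They treat each read as independent, although reads of 1 member can share a length, so they do not test a difference between the sets. For example, miR-2404 alone gave 22 reads of 18 to 20 nt. Without miR-2476, miR-2487 and miR-2904 the members had 67.3% and 53.1% at 21 to 23 nt. Pooled shares weigh the most abundant miRNAs most. As a median over miRNAs with at least 10 reads, over both libraries, the share was 64.1% in the members and 84.5% in the others. With each distinct tag counted once the order reversed, at 50.9% and 44.2%. The plot of read lengths shows a broad curve for the members beside a peak at 22 nt for the others.

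**Figure D5:**
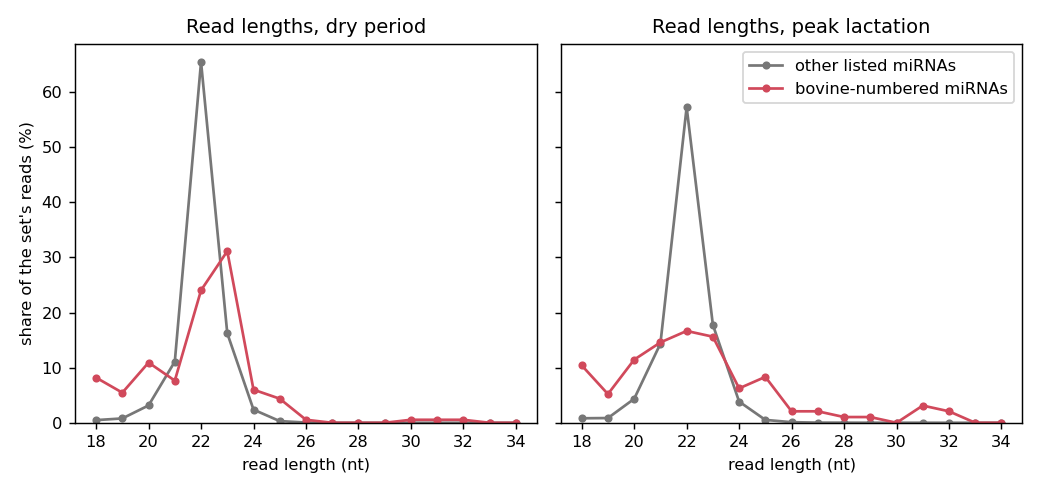
Share of reads in percent by read length in nt, from 18 to 34 nt, for the bovine-numbered miRNAs (red) and the other listed miRNAs (grey) in the dry period and peak lactation libraries. The red lines rest on 183 and 96 reads and spread over 18 to 26 nt and beyond, while the grey lines peak at 22 nt.

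For the comparison between libraries the study's own rule was used. It takes miRNAs with at least 1 RPM in either library, and calls those with a log2 ratio beyond 1 in either direction and an Audic-Claverie probability below 0.01, a probability that compares 2 libraries by their counting error. Only 4 of the 35 members reached 1 RPM, and 2 of the 4 were called lower at peak lactation, where 67.7% of all 257 miRNAs tested were called lower. On the scale of clean reads no member was called higher, where 1.17% of all tested were. These calls count only reads from the listed start. Reads over all starts were not put to the rule. On those, miR-2411* had a log2 ratio of 1.90 (1.18 to 2.69), and miR-2411 one of −0.96 (−1.49 to −0.44), short of the limit of 1. Both the lack of a higher call and the lower call of miR-2411 thus depend on the listed start. The median log2 ratio was −1.10 over the 4 members and −1.44 over all 257, so the ratios below are read against −1.44.

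miR-2387, at 1.82 RPM in the D library and 0.127 RPM in the P library, had a log2 ratio of −3.84 (−6.95 to −1.84). It was called lower (exact Audic-Claverie p = 4.1e-07) and ranked 8 of 257 from the lowest ratio. Relative to the median of all miRNAs it stood at −2.40. miR-2411, at 2.36 and 1.08 RPM, had a log2 ratio of −1.12 (−2.05 to −0.25) and was called lower (exact Audic-Claverie p = 0.0070). Set against the median of all miRNAs it lay 0.32 above. miR-2404, at 1.08 and 0.509 RPM, had a log2 ratio of −1.08 (−2.51 to 0.23) and was not called (exact Audic-Claverie p = 0.080). miR-2476, at 0.673 and 1.15 RPM, had a log2 ratio of 0.77 (−0.43 to 2.04) and was not called (exact Audic-Claverie p = 0.24), while its C1U tags had a log2 ratio of 0.06 (−0.14 to 0.27).

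The direction of miR-2411 and miR-2404 depended on the scaling. Scaling to TMM, to DESeq2 size factors or to the listed miRNA reads raised each log2 ratio by 1.30, 1.40 or 2.08. miR-2411 then had log2 ratios of 0.18, 0.27 and 0.96, and miR-2404 of 0.22, 0.31 and 1.003. miR-2476 had 2.07, 2.16 and 2.85 and was called higher at peak lactation under each of these 3 scalings. That call rests on 10 reads in the D library and 18 in the P library. The shares of all tested miRNAs called under these scalings are not given here, so the call cannot be set against them. miR-2387 stayed lower at peak lactation under each of these scalings, with −1.75 on the scale of the listed miRNA reads, where it was no longer called.

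Below 1 RPM, miR-2331 had 9 reads in the dry period and none at peak lactation, and miR-2424 had 11 and 2 reads, a log2 ratio of −2.54 (−5.76 to −0.34). The C14U tags related to miR-2487 had a log2 ratio of 0.71 (0.63 to 0.79), and the U12C tags related to miR-2904 had one of 1.84 (1.75 to 1.93). Pooled, the 35 members had a log2 ratio of −1.01 (−1.38 to −0.65) per clean read, above the median of −1.44 over all tested miRNAs. The other scalings, with shifts of 1.30, 1.40 and 2.08, would each bring it above 0, so this direction also depends on the scaling. Without miR-2476, miR-2487 and miR-2904 the remaining 32 went from 162 to 64 reads, a log2 ratio of −1.42 (−1.86 to −0.995). That value lies near the median, and only the shift of 2.08 would bring it above 0. Those 3 alone went from 21 to 32 reads, a log2 ratio of 0.53 (−0.31 to 1.39).

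The listed sequences differed in composition as well. A first base of U, common in miRNAs, was found in 10 of the 35 members (28.6%) and in 145 of the 311 others (46.6%). The median G+C content was 52.4% in the members and 45.5% in the others. A listed length under 21 nt was found in 13 members (37.1%) and 46 others (14.8%). A seed shared with another listed miRNA was found in 1 member (2.86%), miR-2341, whose seed AGGUAGA it shares with miR-1839, and in 123 others (39.5%). By name, RefSeq annotation of the goat assembly ARS1.2 holds a miRNA gene for 11 members (31.4%) and 254 others (81.7%). Among the 10 members with 10 or more reads, miR-2404, miR-2411 and miR-2411* were matched by name, and the other 7 were not. A missing name match does not show that a gene is absent. The letters UGAUGA, searched on the listed strand, were found in miR-2335 and miR-2440 and in 5 of the 311 others.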

How the data were processed

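Small RNA was size-selected, ligated to adaptors and sequenced by Solexa, with base calling by CASAVA per the labels. The authors removed reads of low quality, with poly(A) or adaptor faults or under 18 nt, and deposited the counts of each distinct clean tag in each library beside its length and sequence. Tags had not been mapped in these files, and the counts were not normalized. No molecular identifiers are named in the sources used here.

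The miRNA names and sequences came from the study's list of conserved miRNAs, without its read numbers. A tag was counted for a miRNA if it was identical from the 5′ end for at least 18 bases, and given to the longest match. Counts were divided by all clean reads (RPM). A count of 0 was set to 0.01 RPM for a ratio, as in the study. The rule for members, the lists and the tests were chosen with earlier results of these data known. All members are named with their reads, and those with at least 10 reads are described in full. Others are named only where they share sequence or a trait with a member or are ruminant-numbered. The comparison used Audic-Claverie probabilities, since 1 library per stage gives edgeR's quasi-likelihood test no residual degrees of freedom. Counting intervals were exact (Clopper-Pearson for shares and a conditional binomial for ratios) and cover counting error only, as PCR copies are not independent molecules.

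5′ end fixity used tags holding listed bases 4 to 18 at any start. Duplexes were folded with RNAduplex of ViennaRNA 2.7.2. Counting and calls were tested on simulated data. Scaling alternatives used edgeR 4.0.16 and DESeq2 1.42.0 in R 4.3.3, and the rest Python 3.11.15, scipy 1.17.1 and matplotlib 3.10.9. Goat gene names came from RefSeq (ARS1.2), matched by name with no coordinates used, as the files name no build. Counting at any start for the arm pairs, and leaving out miR-2476, miR-2487 and miR-2904, were chosen after the data were seen.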

Additional observations from a re-analysis of the deposited data

How the results depend on the processing

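No replicate could be left out, and no paired analysis was possible because each stage had 1 library and the labels give no replicate number. Over the settings tried, 58 recomputed values were scored as the same as the main value, and 45 were not. The scores do not follow the size of a change. Member reads going from 279 to 416 with the first 18 bases at any offset were scored as the same. Fixity of the other miRNAs going from 98.56% to 98.58% was scored as moved. Detection fell from 35 members to 17, 12 and 6 at minimums of 3, 5 and 10 reads in either library. The 279 member reads became 139 with identical tags alone and 12777 with 1 mismatch, the abundant tags of miR-2476, miR-2487 and miR-2904 then being counted. In place of 2 calls of lower members, there were 0 with identical tags, 0 after division by listed miRNA reads, 1 with TMM and 1 with DESeq2 size factors, and 4 with no filter. There was 1 call of a higher member, in place of 0, under 1 mismatch, listed miRNA reads, TMM and DESeq2, which was miR-2476 under the last 3. The share of all tested miRNAs called is given for the main setting alone, so the calls under other settings have no such share beside them. The median log2 ratio of tested members, −1.10, became 0.98 with listed miRNA reads, 0.20 with TMM, 0.29 with DESeq2, −0.50 with 1 mismatch, −2.75 with no filter and −0.36 at a minimum of 10 reads. The value with no filter is that of 1 read in the D library against a count of 0 set to 0.01 RPM. It thus reflects the value chosen for a count of 0. For miR-2411 the log2 ratio reversed to 0.96, 0.18 and 0.27 under these scalings. Member fixity, 37.4%, was 41.7% with bases 3 to 18, 43.8% with bases 5 to 18, 31.6% with each tag counted once and 51.8% from 5 reads up. For the other miRNAs, 98.56% became 98.58%, 98.46%, 81.8% with each tag once, and 98.63% without other ruminant-numbered miRNAs. Member reads of 21 to 23 nt over both libraries, 57.3%, became 50.9% with each tag once, 64.1% as a median over miRNAs and 39.5% at any start. Those of the other miRNAs, 92.1%, became 44.2%, 84.5% and 92.0%, so with each tag once the order of the 2 sets reversed. The arm difference of miR-2411 was 18.9 points at the listed start and 43.5 points at any start. Most members lie near the counting limit, so depth limits every statement on a single member below 10 reads.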
